A study of Mus musculus with 18 samples.

Results

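The genes described here are Arhgap31 and its closest relatives among the GTPase-activating proteins, Arhgap30, Arhgap32 and Arhgap33. They were picked by name, and all 4 were found among the 43432 gene identifiers of the count tables. Arhgap31 was picked because it is lower in cells without Dlg1, and the other 3 because they are its paralogues. The difference of Arhgap31 between genotypes is therefore given as a description, with no test. RNA was measured in libraries of sorted intestinal stem cells, made from 5000 to 10000 cells each, of mice aged 8 to 16 weeks. The groups were Dlg1 conditional knock-out at 2 days after tamoxifen (4 libraries), wild type at 2 days (4 libraries), knock-out at 14 days (5 libraries) and wild type at 14 days (5 libraries). Both genotypes were given tamoxifen. The knock-out at 2 days is the set of columns headed Dmin, which was read as Dlg1 minus, and every value of that group rests on this reading. Neither the Cre driver nor the deleted exons is named in the sources used here, and the labels do not say whether each library came from its own animal. P-values therefore measure the spread between these libraries, which may in part be technical. The series asks about an axis from DLG1, a scaffold of cell polarity, through ARHGAP31 to the small GTPase CDC42.

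Small GTPases such as Cdc42, Rac1 and RhoA are active while GTP is bound and steer actin, polarity and adhesion. GTPase-activating proteins for them (RhoGAPs) insert an arginine, the arginine finger, into the GTPase and speed up the hydrolysis of GTP, which switches it off. Exchange factors do the reverse, and effectors carry the signal on. Arhgap31, also called CdGAP, acts on Cdc42 and Rac1 and is inhibited by intersectin. Arhgap30 acts on RhoA and Rac1 and is known mainly from blood cells. Arhgap32, known as p250GAP, RICS or Grit, acts on Cdc42 and related GTPases and is best known from synapses and growth cones. Arhgap33, known as TCGAP or NOMA-GAP, acts on Cdc42 and, like the long form of Arhgap32, carries PX and SH3 domains.

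The stretch that the genes share is shown because it holds the catalytic arginine and shows how far the genes differ in their bases where the proteins are most alike in function. Each line gives the coding strand, 5′ to 3′, in 81 bases of 1 GENCODE M21 transcript (GRCm38), with the codon of the finger arginine in capitals.
Arhgap31: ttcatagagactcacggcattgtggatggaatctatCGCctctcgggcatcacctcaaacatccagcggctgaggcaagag
Arhgap30: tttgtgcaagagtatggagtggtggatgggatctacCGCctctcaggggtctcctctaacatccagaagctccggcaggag
Arhgap32: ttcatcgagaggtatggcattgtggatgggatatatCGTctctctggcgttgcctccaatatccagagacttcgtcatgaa
Arhgap33: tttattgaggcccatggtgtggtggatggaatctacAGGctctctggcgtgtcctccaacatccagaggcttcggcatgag
The codon lies at chr16:38640282-38640284 (minus strand) in Arhgap31, chr1:171397540-171397542 (plus) in Arhgap30, chr9:32245217-32245219 (plus) in Arhgap32 and chr7:30529751-30529753 (minus) in Arhgap33. It falls in exon 2 of 12 in the transcripts of Arhgap31 and Arhgap30, in exon 12 of 22 in that of Arhgap32 and in exon 12 of 21 in that of Arhgap33. In all 4 genes an intron interrupts the stretch after base 74. Arhgap31 shared 61 of 81 bases with Arhgap33 (75.3%), 60 with Arhgap32 (74.1%) and 56 with Arhgap30 (69.1%). The closest pair was Arhgap30 and Arhgap33, with 63 bases (77.8%).

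Over all annotated exons, no run of 50 bases was shared between any 2 of the members. The read length is not stated. With other genes, Arhgap31 shared 99 of its 11091 runs of that length (0.893%), Arhgap30 shared 8 of 8681 (0.0922%), and Arhgap32 and Arhgap33 shared none of 17360 and 5418. Arhgap31 (ENSMUSG00000022799) spans chr16:38598340-38713274 and Arhgap30 (ENSMUSG00000048865) spans chr1:171388954-171410298. Arhgap32 (ENSMUSG00000041444) spans chr9:32116136-32268446 and Arhgap33 (ENSMUSG00000036882) spans chr7:30522226-30535060. Another annotated gene lies inside Arhgap31 (Gm15530) and another inside Arhgap32 (Gm47536), and neither covers an exon of its host.

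Libraries held 14.8 to 40.5 M counts at 2 days and 11.1 to 15.7 M at 14 days. All 15 epithelial markers and all 12 intestinal stem cell markers, among them Lgr5 and Olfm4, had counts in each group. The summed level of the stem cell markers was 5823 to 6776 CPM in knock-out and 6806 to 7571 CPM in wild type at 2 days, and 2032 to 2835 CPM in knock-out and 2294 to 2968 CPM in wild type at 14 days. CPM is the usual count per mega-count of a library, after TMM scaling of all 18 libraries together. Dlg1, the targeted gene, ranged from 45.6 to 68.4 CPM in knock-out and 57.1 to 82.4 CPM in wild type at 2 days, and from 36.9 to 85.4 CPM in knock-out and 54.0 to 75.1 CPM in wild type at 14 days. Its log2 fold change was -0.38 ± 0.19 (SE) at 2 days and -0.17 ± 0.22 (SE) at 14 days, and it was not called (edgeR quasi-likelihood F-test, adjusted p = 0.866 and 0.957). The genotypes overlapped in Dlg1 at both times, so its count does not check the labels. A pair of libraries stood apart. In wild-type library 1 of the 2 day table the total (40.5 M) and the part of mitochondrially encoded genes (49.1%) were above those of all others. Library 5 of the knock-out at 14 days had a TMM-scaled size of 8.27 M, against 11.7 to 20.4 M in the others of that time.

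Arhgap31 was the member that stood lower in the knock-out, at both times. At 2 days it held 0.581, 0.296, 0.984 and 0.287 CPM in knock-out libraries 1 to 4, against 7.02, 3.26, 3.08 and 1.98 CPM in wild-type libraries 1 to 4. The knock-out libraries all lay below the wild-type ones, and wild-type library 1 was the highest. These values rest on 4 to 15 raw counts per knock-out library and 31 to 164 per wild-type library. At 14 days it held 0.534, 1.52, 2.56, 1.24 and 1.57 CPM in knock-out libraries 1 to 5, against 6.64, 11.5, 10.7, 5.80 and 9.65 CPM in wild-type libraries 1 to 5. Again no knock-out library reached the lowest wild-type one, and the raw counts were 7 to 35 and 118 to 222.

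Remaining Arhgap31 was a small part of the wild-type level. The knock-out mean was 0.537 ± 0.328 against 3.84 ± 2.198 CPM at 2 days (SD, n = 4 each), or 14.0% of wild type. At 14 days it was 1.48 ± 0.730 against 8.86 ± 2.52 CPM (SD, n = 5 each), or 16.7%. The log2 fold changes were -2.84 ± 0.69 and -2.55 ± 0.38 (SE), and the change at 14 days minus that at 2 days was 0.28 ± 0.67 (SE). Since Arhgap31 was chosen by its difference between genotypes, the fold changes may lie too far from 0, and their SE is no test. Without wild-type library 1 the value at 2 days was -2.37, and without knock-out library 5 the value at 14 days was -2.59. The 14 day columns carry the letter B or J, of unstated meaning. With B the means were 1.02 and 9.08 CPM (knock-out and wild type, n = 2 each), and with J they were 1.79 and 8.71 CPM (n = 3 each). The summed stem cell markers were lower in the knock-out at 2 days, without overlap (5823 to 6776 against 6806 to 7571 CPM), and overlapped at 14 days. At 2 days Olfm4 (2874 ± 282 against 3497 ± 648 CPM) and Slc12a2 (1522 ± 200 against 1843 ± 196 CPM) led this sum (knock-out and wild type, SD, n = 4 each). Smoc2 stood at 249 ± 22.9 against 249 ± 26.1 CPM and Axin2 at 299 ± 44.9 against 321 ± 36.5 CPM in the same order. The part of these markers in the level of Arhgap31 was not tested. In these whole-population libraries, fewer cells with the transcript and less transcript per cell cannot be told apart.

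The lack of overlap was rare among all genes. Knock-out libraries all lay below all wild-type libraries for 252 of 13031 tested genes at 2 days (1.93%) and for 48 of 13991 at 14 days (0.343%). Of 12480 genes tested at both times, 2 did so at both (0.016%), Arhgap31 and Hspbap1. Hspbap1, named after its values were seen, had log2 fold changes of -1.25 and -0.48. Since Arhgap31 was chosen by this difference, nothing is read from its place here. In log2 fold change Arhgap31 ranked 10 from the lowest of all genes at 2 days and 1 at 14 days.

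**Figure D1:**
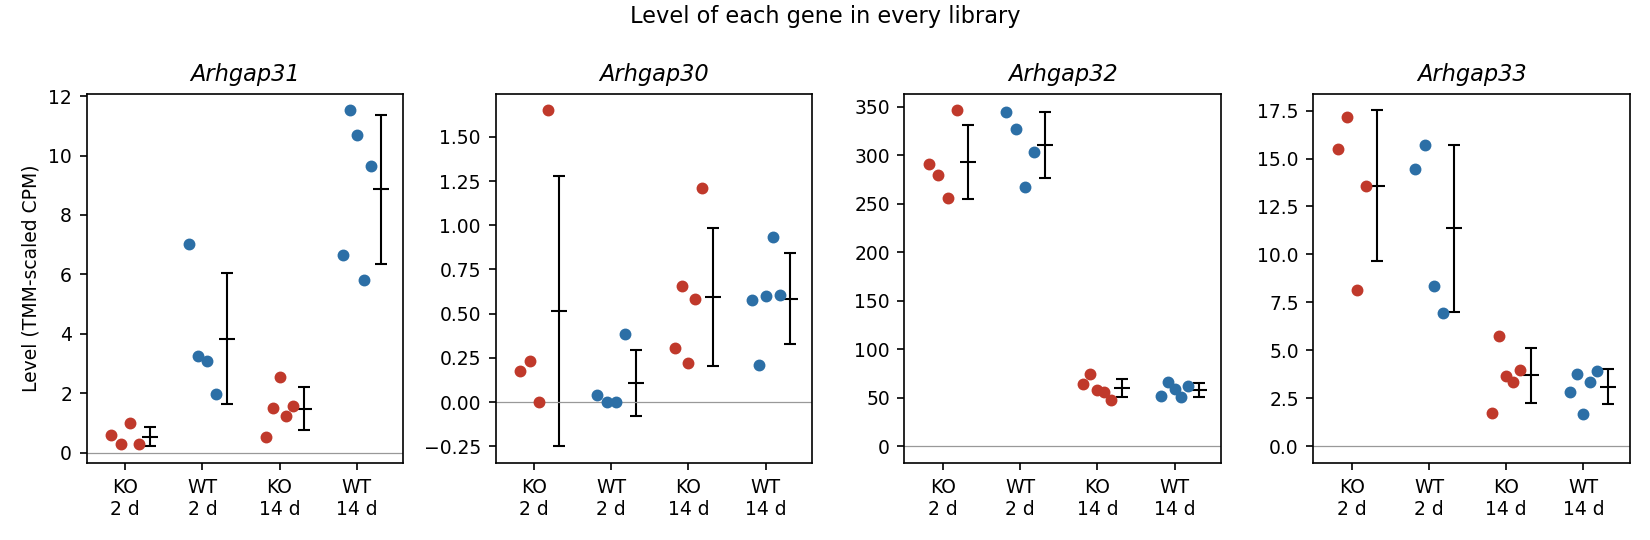
Level of Arhgap31, Arhgap30, Arhgap32 and Arhgap33 in each library (points, TMM-scaled CPM, each panel with its own linear axis), with the group mean and SD (bar beside the points), for knock-out (red) and wild type (blue) at 2 and 14 days. Arhgap31 stays at or below 2.56 CPM in knock-out libraries and reaches 11.5 CPM in wild type, while Arhgap32 and Arhgap33 differ between times and overlap between genotypes.

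Arhgap30 was barely detected in these cells. At 2 days it held 0.174, 0.230, 0 and 1.65 CPM in knock-out libraries 1 to 4, against 0.0428, 0, 0 and 0.384 CPM in wild-type libraries 1 to 4. Knock-out library 4 alone gave 23 of the 33 knock-out counts, and wild type gave 7 counts in all. A count of 0 allows up to 3 counts, which is 0.0986 to 0.215 CPM in the libraries of this time, so the zeros cannot be set apart from the lowest nonzero values. This limit covers counting error only. Arhgap30 did not pass the filter on low counts at 2 days, and its genotype effect was not tested there.

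At 14 days Arhgap30 had counts in every library. It held 0.305, 0.659, 0.219, 0.582 and 1.21 CPM in knock-out libraries 1 to 5, against 0.575, 0.208, 0.599, 0.933 and 0.606 CPM in wild-type libraries 1 to 5. The ranges overlapped almost wholly. The means were 0.595 ± 0.389 and 0.584 ± 0.257 CPM (knock-out and wild type, SD, n = 5 each). The log2 fold change was 0.01 ± 0.61 (SE; 95% interval -1.29 to 1.31; edgeR quasi-likelihood F-test, adjusted p = 0.999), and -0.40 without knock-out library 5. At 3 to 19 counts per library, changes within this interval could not be detected.

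Arhgap32 was the most abundant of the 4 genes and showed no detectable difference by genotype. At 2 days it held 291, 279, 256 and 346 CPM in knock-out libraries 1 to 4, against 345, 327, 267 and 303 CPM in wild-type libraries 1 to 4. The lowest and the highest value were both from the knock-out, so the wild-type range lay inside that of the knock-out. The means were 293 ± 38.2 and 310 ± 33.5 CPM (knock-out and wild type, SD, n = 4 each). The log2 fold change was -0.08 ± 0.16 (SE; 95% interval -0.42 to 0.26; edgeR quasi-likelihood F-test, adjusted p = 0.943).

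At 14 days Arhgap32 held 64.0, 74.2, 58.2, 55.9 and 48.2 CPM in knock-out libraries 1 to 5, against 51.8, 66.4, 59.5, 50.4 and 62.6 CPM in wild-type libraries 1 to 5. As at 2 days, the knock-out gave both the lowest and the highest value. The log2 fold change was 0.07 ± 0.14 (SE; 95% interval -0.24 to 0.37; edgeR quasi-likelihood F-test, adjusted p = 0.973). Averaged over both times it was -0.02 ± 0.11 (SE; 95% interval -0.24 to 0.20; adjusted p = 0.998), the narrowest interval of the members. The sign changed without knock-out library 3 (0.015) or wild-type library 1 (0.012) at 2 days, and without knock-out library 5 (0.022) or wild-type library 2 (0.014) at 14 days, all within the error.

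Arhgap33 showed no detectable difference by genotype either, with a wider error. At 2 days it held 15.5, 17.1, 8.14 and 13.6 CPM in knock-out libraries 1 to 4, against 14.4, 15.7, 8.35 and 6.97 CPM in wild-type libraries 1 to 4. The knock-out had the highest value and wild type the lowest. The log2 fold change was 0.26 ± 0.34 (SE; 95% interval -0.48 to 1.01; edgeR quasi-likelihood F-test, adjusted p = 0.910). At 14 days it held 1.75, 5.74, 3.66, 3.35 and 3.99 CPM in knock-out libraries 1 to 5, against 2.82, 3.79, 1.71, 3.34 and 3.91 CPM in wild-type libraries 1 to 5. Both genotypes had a library below 2 CPM, and 2 knock-out libraries lay above all of wild type. The log2 fold change was 0.27 ± 0.37 (SE; 95% interval -0.53 to 1.06; edgeR quasi-likelihood F-test, adjusted p = 0.961). The wide intervals leave room for a change of Arhgap33 in either direction.

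For scale, edgeR called 0 of 13031 genes at 2 days (0%) and 0 of 13991 at 14 days (0%) between genotypes. An unadjusted p under 0.05 was found for 640 genes (4.91%) and 558 genes (3.99%). DESeq2 called 13 and 1, and limma voom 0 and 0. In the effect averaged over times edgeR called 1 of 15458 genes (0.00647%), and no paralogue of Arhgap31 was called. Averaged, Arhgap33 had a log2 fold change of 0.25 ± 0.25 (SE; adjusted p = 0.894) and Arhgap30 one of 1.10 ± 0.75 (SE; adjusted p = 0.847). The value of Arhgap30 was 0.21 without knock-out library 4 at 2 days and 2.19 without wild-type library 4 at 2 days. Whether the genotype effect of a paralogue differed between times was also tested. The change at 14 days minus that at 2 days was 0.13 ± 0.21 for Arhgap32, -0.02 ± 0.51 for Arhgap33 and -2.196 ± 1.49 for Arhgap30 (SE; edgeR quasi-likelihood F-test, adjusted p = 0.942, 1 and 0.861), where edgeR called 0 of 15458 genes (0%; 921, or 5.96%, at an unadjusted p under 0.05; DESeq2 13, voom 0). For Arhgap30 this difference was -0.42 and -4.38 without the same libraries.

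**Figure D2:**
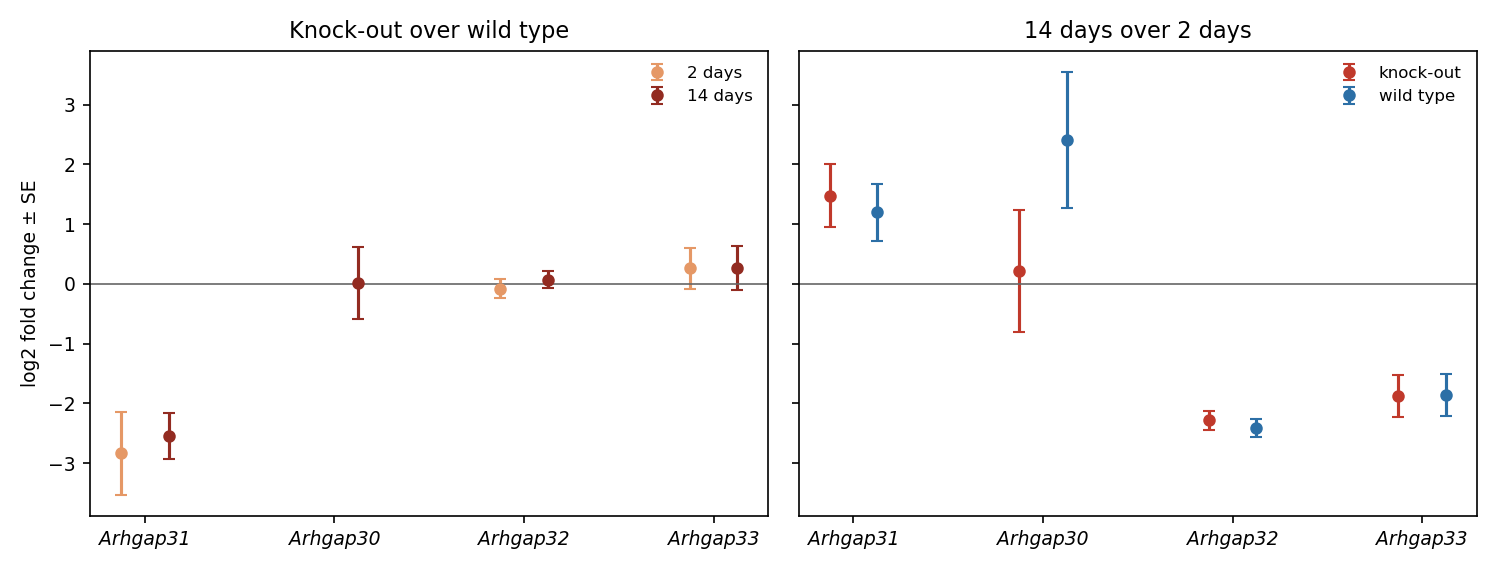
Log2 fold changes with their SE (points and bars) of each member, for knock-out over wild type at 2 and 14 days (left; Arhgap30 was not tested at 2 days) and for 14 days over 2 days in knock-out and wild type (right). Between genotypes only the values of Arhgap31, which was chosen by this difference, lie far from 0, at -2.84 and -2.55. Between times Arhgap31 lies above 0 while Arhgap32 and Arhgap33 lie below it in both genotypes.

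Across time the members moved in opposite directions. Arhgap31 was higher at 14 days than at 2 days in both genotypes, and Arhgap32 and Arhgap33 were lower. Each time is its own table and may be its own run or cohort, so time cannot be told apart from these. Between times edgeR called 7787 of 15458 genes in the knock-out (50.4%; 25.3% higher and 25.1% lower) and 8251 in wild type (53.4%; 27.7% higher and 25.7% lower). A call here is thus common. Other measures moved with time as well: the summed stem cell and leukocyte markers were lower at 14 days in both genotypes, without overlap. Single markers differed. Of the stem cell markers of highest mean level, Olfm4, Slc12a2 and Axin2 were lower at 14 days. Smoc2 was not, at 267 against 249 CPM (knock-out) and 316 against 249 CPM (wild type, 14 and 2 days). Of the leukocyte markers of highest mean level, Lcp1, Cd68 and Itgam were lower. Vav1 was higher, at 6.39 against 4.48 CPM (knock-out) and 6.65 against 4.55 CPM (wild type). Summed epithelial markers were higher at 14 days, without overlap, at 9156 to 14237 CPM in the knock-out and 9724 to 13299 CPM in wild type, against 6165 to 6734 CPM in the knock-out and 5476 to 6236 CPM in wild type at 2 days. Summed goblet and Paneth markers ranged from 4166 to 16186 CPM in the knock-out and 3390 to 17913 CPM in wild type at 14 days, against 1199 to 3248 CPM in the knock-out and 987 to 3527 CPM in wild type at 2 days. The mitochondrial part of a library was 6.21% to 26.3% at 14 days, against 26.1% to 49.1% at 2 days. Their part in the changes of the members was not tested. The median log2 fold change of all genes was 0.06 in the knock-out and 0.12 in wild type.

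Arhgap32 fell most. In the knock-out it stood at 60.1 ± 9.68 CPM at 14 days (SD, n = 5) and 293 ± 38.2 CPM at 2 days (SD, n = 4), a log2 fold change of -2.29 ± 0.15 (SE; edgeR quasi-likelihood F-test, adjusted p = 3.08e-10). In wild type it stood at 58.2 ± 6.89 and 310 ± 33.5 CPM (14 and 2 days), a log2 fold change of -2.42 ± 0.15 (SE; adjusted p = 1.24e-10). The 14 day level was 20.5% of the 2 day level in the knock-out and 18.7% in wild type. No library of one time overlapped the other, which held in the same direction for 21.7% of all genes in the knock-out and 20.6% in wild type.

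Arhgap33 fell alongside it. In the knock-out it stood at 3.70 ± 1.43 CPM at 14 days and 13.6 ± 3.92 CPM at 2 days, a log2 fold change of -1.88 ± 0.36 (SE; edgeR quasi-likelihood F-test, adjusted p = 1.71e-04). In wild type it stood at 3.12 ± 0.895 and 11.4 ± 4.33 CPM (14 and 2 days), a log2 fold change of -1.86 ± 0.36 (SE; adjusted p = 1.67e-04). As for Arhgap32, the times did not overlap in either genotype.

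Arhgap31 rose with less certainty. Its log2 fold change was 1.47 ± 0.53 in the knock-out and 1.20 ± 0.48 in wild type (SE; edgeR quasi-likelihood F-test, adjusted p = 0.0236 and 0.0390). The times overlapped: 4 of 5 knock-out libraries at 14 days lay above all knock-out libraries at 2 days, and 3 of 5 wild-type libraries did so among wild type. The call in wild type ended without any one of wild-type libraries 2, 3 or 4 at 2 days (1.13, 1.10 and 0.98; adjusted p = 0.0856, 0.0912 and 0.117) or 2, 3 or 5 at 14 days (1.10, 1.13 and 1.17; adjusted p = 0.0839, 0.0677 and 0.0683). That in the knock-out ended without knock-out library 2 or 4 at 2 days (1.25 and 1.29; adjusted p = 0.0754 and 0.0676) or 3 at 14 days (1.18; adjusted p = 0.0749). At the higher level of 14 days the knock-out mean of 1.48 CPM was below the lowest wild-type library at 2 days, at 1.98 CPM, while knock-out library 3, at 2.56 CPM, lay above it.

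Arhgap30 was not called between times. Its log2 fold change was 0.22 ± 1.02 in the knock-out and 2.41 ± 1.14 in wild type (SE; edgeR quasi-likelihood F-test, adjusted p = 0.880 and 0.0791). The wild-type value rests on 7 counts at 2 days, and without wild-type library 4, which gave 6 of them, it was 4.59 (adjusted p = 0.0109).

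Levels of different genes were set side by side only per kb of annotated exon. At 2 days Arhgap32 had 17.1 CPM per kb in the knock-out and 18.1 in wild type, followed by Arhgap33 with 2.55 and 2.13. Arhgap31 had 0.0482 in the knock-out and 0.345 in wild type, and Arhgap30 had 0.0598 and 0.0124 in the same order. The order of the last pair thus differs between the genotypes, and in the knock-out these low levels overlap within their spread. At 14 days Arhgap32 led again, with 3.50 CPM per kb in the knock-out and 3.39 in wild type. Arhgap33 came next in the knock-out, with 0.693 against 0.133 for Arhgap31 and 0.0692 for Arhgap30. In wild type Arhgap31 had 0.795 CPM per kb, Arhgap33 0.584 and Arhgap30 0.0680, and the libraries of Arhgap31 (0.520 to 1.03) and Arhgap33 (0.321 to 0.734) overlapped.

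Among 59 RhoGAP genes ranked by level per kb (the members and 55 others), Arhgap32 was number 5 from the top in both genotypes at 2 days and number 24 in both at 14 days. Arhgap31 was number 50 in the knock-out and 41 in wild type at 2 days, and 46 and 35 at 14 days. Arhgap33 lay between 29 and 36 and Arhgap30 between 47 and 51 in all groups.

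The RhoGAP family beyond the members showed no call between genotypes, as no gene did at either time. Of 44 other members tested at 2 days, the log2 fold change was positive in 17 and negative in 27, with a median of -0.10 against 0.01 for all genes. At 14 days 21 of 42 were positive and 21 negative, with a median of -0.0046 against 0.0056 for all genes. None was called at either time (0% of all genes were), and at each time 1 had an unadjusted p under 0.05. Arhgap31 was the lowest of 47 family genes tested at 2 days and of 46 at 14 days. Since it was chosen by this difference, nothing is read from that place. Tagap, the next at 2 days, had -0.85 ± 0.59 (SE). At 14 days the highest was Srgap1, a RhoGAP downstream of the Slit receptor Robo, at 1.79 ± 0.64 (SE). It held 3.28 ± 1.64 against 0.927 ± 0.711 CPM (knock-out and wild type, SD, n = 5 each), and was not called (edgeR quasi-likelihood F-test, adjusted p = 0.957). Arhgap5, known as p190B, had -0.32 ± 0.17 and -0.11 ± 0.14 (SE) at 2 and 14 days, the myosin Myo9a had -0.36 ± 0.20 and -0.19 ± 0.22 (SE), and Arhgap42, a RhoGAP for RhoA, had -0.26 ± 0.18 and -0.12 ± 0.14 (SE).

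**Figure D3:**
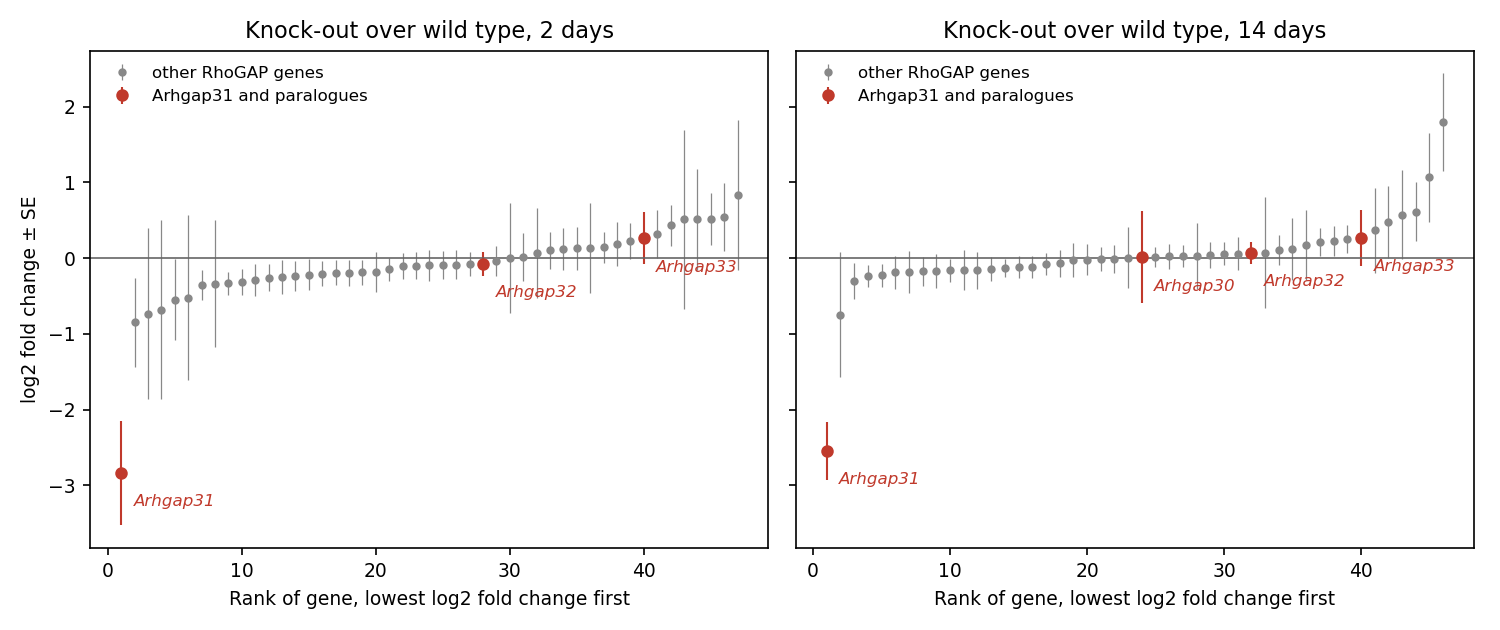
Log2 fold change of knock-out over wild type with SE for each tested RhoGAP gene, ranked from the lowest, at 2 days (left, 47 genes) and 14 days (right, 46 genes), with the members in red and the others in grey. Arhgap31, which was chosen by this difference, lies at -2.84 and -2.55 with the next gene above -1, and the tested paralogues lie near 0.

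Between times more of the family was called lower than higher at 14 days, as Arhgap32 and Arhgap33 were. Of 45 other RhoGAP genes tested, 3 were called higher and 16 lower at 14 days in the knock-out, and 2 higher and 17 lower in wild type. Of all genes, 25.3% were called higher and 25.1% lower in the knock-out, and 27.7% and 25.7% in wild type. The median log2 fold change was -0.37 in the knock-out and -0.59 in wild type, against 0.06 and 0.12 for all genes. Arhgap5 and Myo9a went the way of Arhgap31, with 0.85 ± 0.16 and 1.19 ± 0.22 in the knock-out and 0.65 ± 0.16 and 1.04 ± 0.22 in wild type (SE; edgeR quasi-likelihood F-test, adjusted p at most 0.00159).

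The switches on which these proteins act showed no call between genotypes either (0% of all genes were called at either time). Cdc42 stood at 171 ± 39.9 and 180 ± 21.8 CPM at 2 days (knock-out and wild type, SD, n = 4 each) and at 257 ± 83.4 and 205 ± 36.2 CPM at 14 days (SD, n = 5 each). Its log2 fold changes were -0.07 ± 0.18 and 0.34 ± 0.21 (SE; edgeR quasi-likelihood F-test, adjusted p = 0.958 and 0.957). Of 16 GTPases of the Cdc42, Rac and RhoA family tested at 2 days 5 were positive and 11 negative, and of 17 at 14 days 8 were positive and 9 negative, with medians of -0.08 and -0.00045. Rnd1, which lowers adhesion and lacks GTPase activity, had -1.86 ± 0.73 (SE) at 2 days and 0.23 ± 0.53 (SE) at 14 days. Rac3, a relative of Rac1, had 1.06 ± 0.68 (SE) at 2 days, with 1.36 ± 0.853 against 0.654 ± 0.172 CPM (knock-out and wild type, SD, n = 4 each), and Rhof, which builds filopodia, had -0.35 ± 0.45 and -0.41 ± 0.28 (SE) at 2 and 14 days. Rhoh, a GTPase of blood cells, held 0.520 ± 1.04 CPM (SD, n = 4) in the 2 day knock-out and was at 0 in every wild-type library of that time. At 14 days it held 0.880 ± 0.519 CPM in the knock-out and 0.530 ± 0.535 CPM in wild type (SD, n = 5 each). It was not tested at either time alone.

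Exchange factors for Cdc42 and Rac, which oppose these proteins, split in both directions. At 2 days 12 of 34 tested were positive and 22 negative (median -0.09), and at 14 days 20 of 36 were positive and 16 negative (median 0.03). None was called, as for 0% of all genes. Spata13, also called Asef2, had -0.66 ± 0.22 (SE) at 2 days, with 111 ± 16.5 against 176 ± 59.6 CPM (knock-out and wild type, SD, n = 4 each), and -0.10 ± 0.26 (SE) at 14 days. Itsn2, an exchange factor for Cdc42 of the intersectin family, had -0.37 ± 0.17 (SE) at 2 days and -0.06 ± 0.12 (SE) at 14 days. Fgd3 and Dock10 were too low for a test at 2 days and had 0.04 ± 0.68 and 0.62 ± 0.65 (SE) at 14 days. At 2 days Fgd3 held 0.0489 ± 0.0331 against 0.552 ± 0.171 CPM, and Dock10 0.598 ± 0.680 against 0.113 ± 0.109 CPM (knock-out and wild type, SD, n = 4 each). Their averaged effects were -1.70 ± 0.61 and 1.42 ± 0.72 (SE; edgeR quasi-likelihood F-test, adjusted p = 0.829 for both), and the change at 14 days minus that at 2 days was 3.49 ± 1.23 for Fgd3 and -1.63 ± 1.41 for Dock10 (SE; adjusted p = 0.762 and 0.874).

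Effectors of Cdc42 were split in both directions too. At 2 days 13 of 29 tested were positive and 16 negative (median -0.04), and at 14 days 13 of 30 were positive and 17 negative (median -0.03). No effector was called (0% of all genes were). Baiap2, known as IRSp53, which bends membranes, had 1.05 ± 0.44 (SE) at 2 days and -0.08 ± 0.28 (SE) at 14 days. Cdc42ep5 had 0.88 ± 0.35 and 0.17 ± 0.22 (SE) at 2 and 14 days, and the formin Fmnl2 had -0.41 ± 0.27 and -0.27 ± 0.26 (SE). Pak3, a kinase bound by active Cdc42 and Rac, was too low for a test at 2 days, where it held 0.0600 ± 0.0823 against 0.870 ± 0.563 CPM (knock-out and wild type, SD, n = 4 each), and had 0.28 ± 0.59 (SE) at 14 days. Its averaged effect was -1.76 ± 0.66 and its change at 14 days minus that at 2 days 4.01 ± 1.33 (SE; edgeR quasi-likelihood F-test, adjusted p = 0.829 and 0.762).

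Proteins reported to bind or modify Arhgap31, such as intersectins, GSK3, ERK and RSK kinases and 14-3-3 proteins, gave 17 tested genes. At 2 days 6 were positive and 11 negative (median -0.15), and at 14 days 7 were positive and 10 negative (median -0.03). No gene of this list was called (0% of all genes were). Rps6ka1, the kinase RSK1, had 0.16 ± 0.17 (SE) at 2 days and -0.34 ± 0.15 (SE) at 14 days, with 129.9 ± 22.03 against 167 ± 16.8 CPM at 14 days (knock-out and wild type, SD, n = 5 each). The 14-3-3 genes Ywhag and Ywhab had -0.21 ± 0.18 and -0.24 ± 0.17 (SE) at 2 days. Between times 2 genes of this list were called higher and 11 lower in the knock-out, and 1 higher and 12 lower in wild type, against 25.3% higher and 25.1% lower of all genes in the knock-out and 27.7% and 25.7% in wild type.

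Arhgap31 lies on chromosome 16, as does Dlg1 (chr16:31663443-31875129), with 6.72 Mb between them. The nearest tested genes around Arhgap31 were not called between genotypes (0% of all genes were at either time). Tmem39a, a membrane protein gene that ends 6.18 kb from Arhgap31, had a log2 fold change of -0.66 ± 0.31 at 2 days and 0.09 ± 0.19 at 14 days (SE). Poglut1, which adds glucose to Notch, had -0.12 ± 0.19 and -0.16 ± 0.15 (SE), and B4galt4, a galactosyltransferase 28.99 kb away on the other side, had 0.03 ± 0.51 and -0.01 ± 0.26 (SE). Timmdc1, an assembly factor of respiratory complex I, had 0.38 ± 0.31 and 0.63 ± 0.21 (SE), the value at 14 days with an unadjusted p of 0.00910 (edgeR quasi-likelihood F-test, adjusted p = 0.957). Igsf11, an adhesion gene 179.4 kb away, held 5.73 ± 2.91 against 15.1 ± 7.73 CPM at 2 days (knock-out and wild type, SD, n = 4 each). Its log2 fold change was -1.39 ± 0.45 (SE; edgeR quasi-likelihood F-test, unadjusted p = 0.00878, adjusted p = 0.866). At 14 days Igsf11 was too low for a test in both genotypes. Gm15803, a gene model 100.72 kb away, was too low at both times. No tested neighbour had a log2 fold change as low as that of Arhgap31, which was chosen by this difference, at either time.

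**Figure D4:**
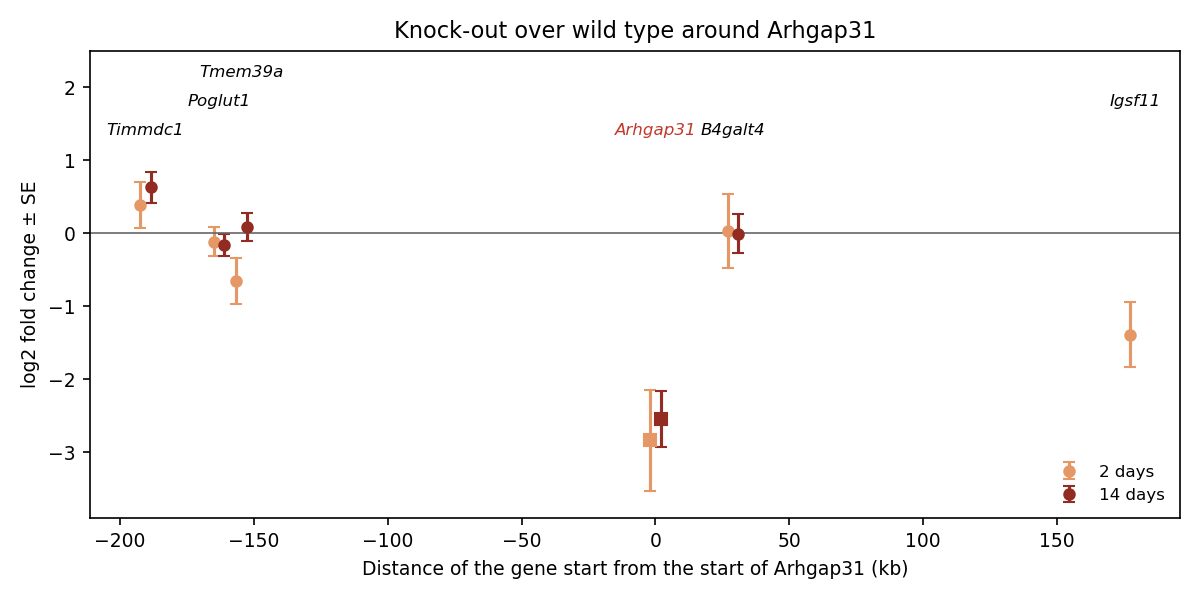
Log2 fold change of knock-out over wild type with SE at 2 days (light) and 14 days (dark) for Arhgap31 (squares) and its nearest tested neighbours (circles), by the distance in kb of each gene's start from that of Arhgap31. Arhgap31 lies at -2.84 and -2.55, Igsf11 at -1.39 at 2 days, and the other neighbours between -0.66 and 0.63.

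The genes whose levels were most like those of Arhgap31 were looked for among 9067 genes over all 18 libraries. With the mean of each time taken out, so that the genotype difference remains, they were Unc119b (Pearson r = 0.899, Spearman correlation 0.876), Mapk1ip1l (0.875), Khsrp (0.872), Keap1 (0.859) and Mat2a (r = 0.849). Khsrp binds AU-rich RNA, Keap1 holds the stress factor NRF2 for degradation and Mat2a makes S-adenosylmethionine. All 5 had a negative log2 fold change at both times, between -0.06 and -0.69, against -2.84 and -2.55 for Arhgap31. Genes picked with the genotype difference left in tend to share its direction, so nothing is read from these signs. With the mean of each of the 4 groups taken out, they were Gins3 (r = 0.864), Fundc1 (0.835), Spats2 (0.811), Hnrnpu (0.810) and Irf2bp1 (0.809). None of these 5 was among the 5 above. The points share library and depth, and the genes are the highest of many, so these values describe and test nothing.

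Within groups the members did not follow each other closely. The correlation of log2 CPM over 18 libraries with group means taken out was 0.48 for Arhgap32 with Arhgap33, 0.32 for Arhgap30 with Arhgap32 and 0.24 for Arhgap31 with Arhgap33. Arhgap31 had -0.06 with Arhgap30 and -0.04 with Arhgap32. The genes most like Arhgap32 by this measure were Nr5a2 (r = 0.961), Golim4 (0.951) and Plekha6 (0.948). Those reported for Arhgap33 were Prkd2 (0.890) and Kctd2 (0.887), and those for Arhgap30, with few counts, were Mcc (0.731), Srpk2 (0.718) and Jkamp (0.700).

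Summed markers of endothelial cells, leukocytes, fibroblasts and smooth muscle lay far below those of epithelial cells in all groups. Arhgap31, at 11.5 CPM or less, and Arhgap30, at 1.65 CPM or less, were low as well. Arhgap31 is also known from endothelial cells and Arhgap30 from leukocytes. Of 18 endothelial markers, 8 in the knock-out and 9 in wild type were at 0 in all libraries at 2 days, among them Cdh5, Tie1 and Emcn in both genotypes. At 14 days 1 marker in each genotype was at 0, Cldn5 in the knock-out and Sox17 in wild type. Their summed level ranged from 12.1 to 13.5 CPM in the knock-out and 9.93 to 21.1 CPM in wild type at 2 days, and from 11.3 to 22.5 CPM in the knock-out and 10.2 to 18.2 CPM in wild type at 14 days. The genotypes overlapped in this sum at both times. Esam led this sum, with means of 8.71 ± 2.09 and 12.1 ± 5.04 CPM at 2 days (knock-out and wild type, SD). At 14 days it led again, at 7.16 and 7.95 CPM in the same order. Wild-type library 1 at 2 days, at 21.1 CPM, was the highest of that time in this sum and also in Arhgap31, at 7.02 CPM. Cdh5, Kdr, Tie1 and Emcn were at 0 in that library, while Pecam1 had counts in every wild-type library of that time. The part of endothelial cells in the level of Arhgap31 was not tested.

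Among 28 leukocyte markers, Cd2 was at 0 in all libraries of both genotypes at 2 days, and at 14 days none was at 0 in the knock-out and 2 were in wild type (Cd2 and Cd48). Their summed level ranged from 82.3 to 149 CPM in the knock-out and 114 to 138 CPM in wild type at 2 days, and from 55.3 to 80.8 CPM in the knock-out and 59.8 to 65.0 CPM in wild type at 14 days, led by the actin bundler Lcp1. Ptprc, which encodes CD45, ranged from 0.131 to 2.30 CPM in the knock-out and from 0.0685 to 2.11 CPM in wild type at 2 days. Knock-out library 4 at 2 days, the highest for Arhgap30, had a summed level of 98.1 CPM, inside the range of its group. It was the highest of its group in Ptprc (32 counts), Laptm5 (32 counts) and Coro1a (26 counts, all those of the group). Wild-type library 4 at 2 days, the highest of its group for Arhgap30, was likewise the highest in Ptprc (33 counts), Laptm5 (20 counts) and Coro1a (16 of 17 counts). Cd3e and Tyrobp were highest in other libraries of both groups, and Cd52 in library 1 of the knock-out and library 4 of wild type. The summed level of wild-type library 4 was 126.5 CPM, inside the range of its group. The part of these cells in the level of Arhgap30 was not tested. Summed fibroblast and smooth muscle markers (16 genes) ranged from 5.24 to 10.9 CPM in the knock-out and 1.93 to 8.39 CPM in wild type at 2 days, and from 8.97 to 24.7 CPM in the knock-out and 7.53 to 19.1 CPM in wild type at 14 days. Other epithelial lineages were present in all groups. Summed enterocyte markers (15 genes) ranged from 1803 to 6542 CPM in the knock-out and 1571 to 2295 CPM in wild type at 2 days, and from 1073 to 4036 CPM in the knock-out and 1256 to 6126 CPM in wild type at 14 days.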

How the data were processed

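The authors deposited whole-number read counts per Ensembl gene, not normalized, in a table for each time. GRCm38, STAR 2.4.2a and bcl2fastq 2.20.0.422 are named in the submitters' processing notes. How reads were counted, with which strand setting and annotation, is not stated in the sources used here. Amplified cDNA without molecular identifiers was counted, so counts include copies, and limits from counts cover counting error only. Columns named Dmin were read as knock-out at 2 days, and every value of that time rests on this. Libraries are numbered by their place in the table.

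Symbols, coordinates, exon lengths and sequences came from GENCODE M21. Counts were tested with edgeR 4.0.16 (R 4.3.3): filterByExpr with a minimum count of 10, TMM scaling, the quasi-likelihood F-test, and Benjamini-Hochberg adjustment over all tested genes, called at an adjusted p under 0.05. Genotypes were compared within each time alone. Averaged effects, differences between times and 14 against 2 days came from 1 fit of all 18 libraries with 4 group means. The SE is the absolute log2 fold change over the square root of F, and the prior count of log2 CPM was 2.

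The members and gene lists were chosen with earlier results of these data known. Genes named were the members, Dlg1, Cdc42, 3 tested neighbours per side, up to 4 genes per list of smallest p in the averaged effect, and the genes of highest correlation with a mean log2 CPM of at least 3. An item that this rule names is not reported here. Tagap and Hspbap1 were named after their values were seen. Alternatives were other scalings, other filters, DESeq2 1.42.0, limma 3.58.1 voom, leaving out mitochondrially encoded genes, 1 fit of all libraries for each time, transcript length, leaving out each library and, chosen after seeing the data, the letter in the 14 day column names. The test was checked on simulated data with these library sizes, in which it called 34 of 50 genes lowered to 0.25 of their level at 2 days (13031 genes) and 37 of 50 at 14 days (13991 genes).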

Additional observations from a re-analysis of the deposited data

Results flagged for a closer look

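In 24 sets of libraries checked (the members, Dlg1 and Cdc42 in each group), 3 held a library far from the others of its group, and chance flags about 1 in 20 such sets. Arhgap30 in the knock-out at 2 days was highest in library 4, at 1.65 CPM against 0 to 0.230 CPM in the other libraries. Arhgap30 in wild type at 2 days was highest in library 4, at 0.384 CPM against 0 to 0.0428 CPM in the others, which is 6 counts. Cdc42 in wild type at 2 days was lowest in library 2, at 147.2 CPM, with the group mean at 180 CPM.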

How the results depend on the processing

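Of 428 tested values of members under an alternative, 390 kept their direction and side of the threshold, 25 changed sign, 11 lost and 2 gained a call. Of 84 values of Arhgap31 between genotypes, which have no test, 82 kept their direction. Arhgap31 had -2.97 to -2.79 at 2 days and -2.62 to -2.54 at 14 days over the settings, and -3.30 to -2.37 and -2.85 to -2.33 without single libraries. Genes called between genotypes at 2 days numbered 7 with no filter, 13 with DESeq2, 2 in 1 fit of all libraries and 0 to 1 without single libraries. At 14 days they numbered 2 with no filter, 1 with DESeq2 and 0 to 0 without single libraries. For the averaged effect the counts were 40, 7 and 1 to 2 (no filter, DESeq2, without single libraries), and for the change at 14 days minus that at 2 days they were 98, 13 and 0 to 1. Counts between times stayed within 1.5 times, at 7660 to 8429 in wild type and 7234 to 8581 in the knock-out without single libraries. Signs turned for values near 0. Arhgap30 at 14 days had -0.053 with no filter, -0.085 with voom and -0.40 to 0.22 in the 5 of 10 fits without a library in which it passed the filter, and in the knock-out between times -0.19 to 1.99. Arhgap32 had -0.027 to 0.12 at 14 days and -0.061 to 0.022 averaged. The change at 14 days minus that at 2 days was -0.18 to 0.74 for Arhgap31 and -0.24 to 0.16 for Arhgap33 without single libraries, and for Arhgap33 0.016 with RLE, 0.014 with DESeq2 and 0.0034 without mitochondrially encoded genes. The cause of these turns was not tested. Arhgap31 between times lost its call in wild type with no filter (1.20, adjusted p = 0.0736) and in the knock-out with voom (1.503, adjusted p = 0.0888), and Arhgap30 gained one in wild type with voom (2.96, adjusted p = 0.0200). Upper-quartile scaling moved the median of all genes between times by 0.13 in wild type and 0.12 in the knock-out. Per kb of the longest transcript, Arhgap32 had 21.6 (knock-out, 2 days), 22.9 (wild type, 2 days), 4.43 (knock-out, 14 days) and 4.29 (wild type, 14 days), Arhgap30 at 14 days 0.119 (knock-out) and 0.117 (wild type), and Arhgap31 in wild type at 14 days 1.11. A minimum count of 50 removed Arhgap30, and Arhgap31 at 2 days, and leaving out mitochondrially encoded genes removed Arhgap30 at 14 days, so these had no value there. No paired analysis was possible because the columns carry no replicate numbers of the labels.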
